A study of Danio rerio with 7 samples.

Results

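The genes examined here supply deoxynucleotides, the building blocks of DNA, in sox10-positive cells of the zebrafish (Danio rerio) embryo. They were chosen by name, and the entries of the deposited expression table reported here are those named rrm1, rrm2, rrm2b or tyms. These 4 names gave 5 entries of 33735 in the table, because 2 entries carry the name rrm2. The labels describe 7 samples, and 6 library columns were matched to 3 groups of 2 libraries each: uninjected embryos in DMSO (the solvent control), embryos injected with a morpholino against ctr9 in DMSO, and embryos injected with the same morpholino in 32 µM progesterone. The sample from uninjected embryos in progesterone was not analysed here, so every progesterone value below comes from embryos that also carried the morpholino. Ctr9 belongs to the PAF1 complex, which accompanies RNA polymerase II along genes, and a morpholino is an antisense oligomer that blocks translation or splicing. All embryos were raised at 28 °C, treatment ran from 50% epiboly to 15 somites, and cells were dissociated and sorted for sox10, a marker of neural crest and otic cells. Morpholino columns carry experiment number 1 or 2, while uninjected columns are named by an amount, 5 ng or 10 ng. The labels name no strain, no control morpholino and no number of embryos per sort, nor whether the paired libraries of a group come from separate clutches. The p-values therefore reflect the spread among these particular libraries alone, and that spread may be technical.

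Ribonucleotide reductase turns ribonucleotides into deoxynucleotides and is the rate-limiting step of their synthesis. Its large subunit, encoded by rrm1, holds the catalytic and regulatory sites, and its small subunit, encoded by rrm2 or rrm2b, carries the radical needed for the reaction. In mammals RRM2 is made mainly in S phase and degraded in mitosis, whereas RRM2B is induced by DNA damage and supplies cells outside S phase. Thymidylate synthase, encoded by tyms, methylates dUMP to dTMP with a carbon unit carried by folate. Neural crest cells of the somite stages divide and migrate, so their DNA synthesis draws on this supply.

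Levels are given in FPKM, which counts fragments relative to transcript length and library size, so genes can be compared with each other. The rrm2 entry ENSDARG00000020711 is called the first and ENSDARG00000078069 the second rrm2 entry. In the RefSeq gene table of assembly GRCz12tu no gene has the symbol rrm2, and the genes now called rrm2b and rrm2l both have it as an older symbol, with no link to these identifiers. Which entry corresponds to which current gene, and whether the low entry named rrm2b (ENSDARG00000033367) is the orthologue of mammalian RRM2B, was therefore not settled here. No source used here states how reads shared by similar small-subunit sequences were assigned, so the split between the rrm2 entries is uncertain.

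The progesterone libraries stood apart from the others. Summed FPKM ranged from 356101 to 366905 in 5 libraries but reached 218008 in the sixth, experiment 2 with progesterone. Genes at 1 FPKM or above numbered 11776 and 9575 with progesterone and between 13055 and 13528 elsewhere, and small non-coding RNA took 20.5% and 30.3% of the sum with progesterone and at most 16% elsewhere. The median of the 13155 genes tested had a log2 fold change of -0.07 with the morpholino, -0.58 with progesterone and -0.67 with both, so a relative change below is a log2 fold change minus that median. Of 18 neural crest entries checked, 16 or 17 were at 1 FPKM or above in each library, though foxd3 was at most 0.659 FPKM. Otic markers, of cells that sox10 also marks, reached 64.4 FPKM. Of the other cell types, blood markers summed to at most 3.66 and muscle markers to at most 2.6 FPKM in any library. Neural markers reached 124, endoderm, yolk and hatching gland markers 93.2, epidermis markers 168, endothelium markers 62.8 and notochord markers 22.7 FPKM. Apoeb alone gave 80.2 of that 93.2 FPKM, in the morpholino DMSO library of experiment 1. Fli1a alone gave 59.5 of that 62.8 FPKM, in the uninjected 10 ng library. Of defining markers, the beta-globin gene hbbe1.1, the troponin gene tnnt3a and the endoderm genes sox17 and foxa2 were listed at 0 in all 6. Such a 0 says only how a gene is listed, since the replication gene mcm2 was at 0 in all 6 as well.

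In uninjected cells rrm1 and both rrm2 entries were among the most abundant genes, tyms was of middling level and rrm2b was low. The second rrm2 entry was the highest member at 126.8 and 127.8 FPKM in the 5 ng and 10 ng libraries, followed by the first rrm2 entry at 82.8 and 90.5 FPKM and rrm1 at 57.3 and 51.5 FPKM. Tyms stood at 12.55 and 13.6 FPKM and rrm2b at 2.35 and 2.98 FPKM. The libraries of neighbouring genes did not overlap at any step of this order. Put as ranks, 97.3% and 97.1% of the tested genes lay below the second rrm2 entry and 94.4% and 93.3% below rrm1, against 74.2% and 73.8% below tyms and 25.3% and 29.1% below rrm2b. All 5 entries passed the filter of a mean of 1 FPKM over the libraries.

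**Figure D1:**
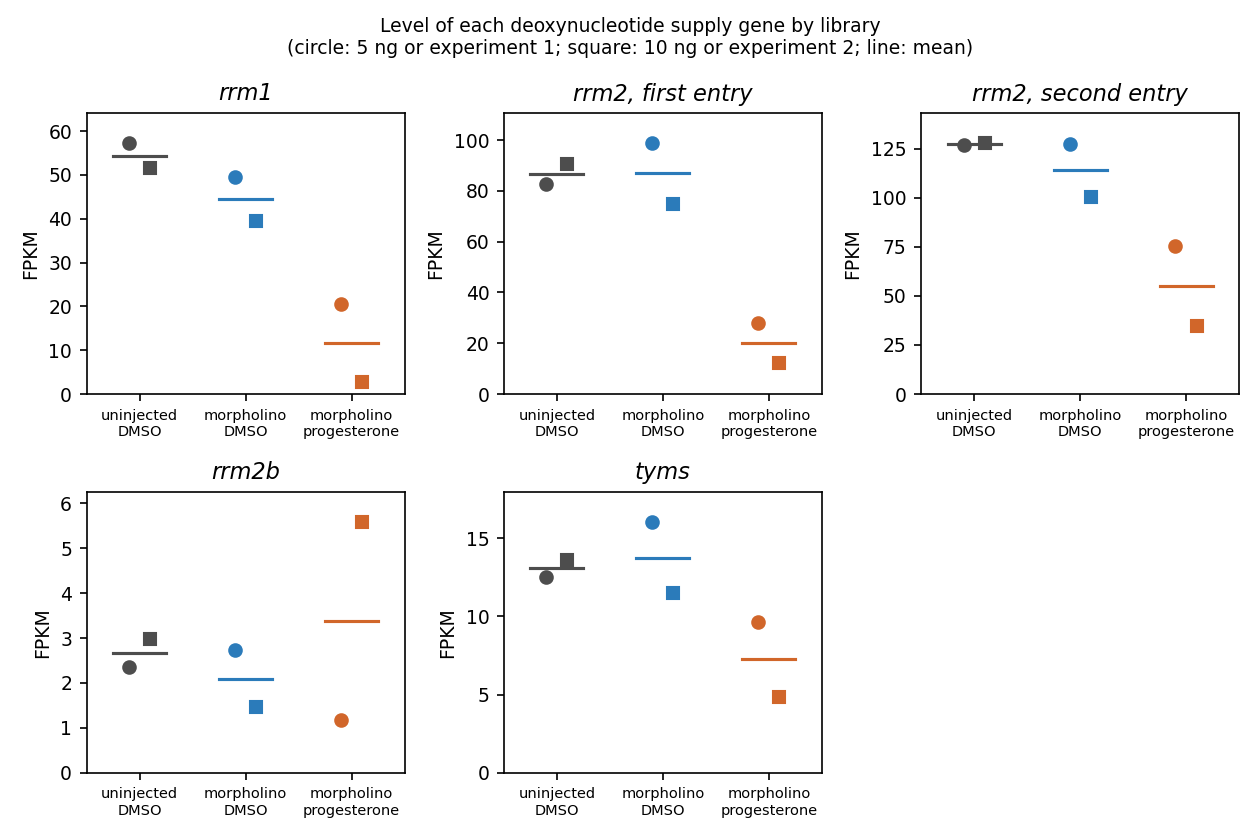
FPKM of each of the 5 entries (vertical axes, linear, from 0) in the 6 libraries, by group; circles are the 5 ng or experiment 1 libraries, squares the 10 ng or experiment 2 libraries, and lines are the means of 2 libraries. For rrm1, both rrm2 entries and tyms, both progesterone libraries lie below all 4 DMSO libraries, whereas the progesterone libraries of rrm2b are its lowest and its highest.

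The first comparison asks what the ctr9 morpholino does to these cells in DMSO. The member levels differed little between the groups, and no member was called at an adjusted p of at most 0.05, in a comparison where 0.0152% of the genes tested were called (limma). Rrm1 stood at 49.5 and 39.4 FPKM in the morpholino libraries of experiments 1 and 2, both below the uninjected libraries (log2 fold change -0.29 ± 0.77, SE). It was the sole member of 5 whose libraries lay apart in the lower direction, against 26.1% of all genes tested, and after median-ratio scaling its groups overlapped. The first rrm2 entry, at 98.8 and 74.9 FPKM, and the second, at 127.4 and 100.5 FPKM, overlapped the uninjected values, with log2 fold changes of -0.01 ± 0.43 and -0.17 ± 0.40.

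Tyms was at 16.05 and 11.5 FPKM with the morpholino, 1 above and 1 below the uninjected pair (log2 fold change 0.05 ± 0.41). After median-ratio scaling both lay above that pair, but the lower, at 10.41, nearly tied with the higher uninjected value, 10.40. Rrm2b was at 2.72 and 1.46 FPKM (-0.27 ± 0.60). In the deposited scale the groups overlapped for tyms and rrm2b, and the adjusted p of every member was 1 (limma).

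Of the regulator list, mdm2 and cdkn1a stood higher in the same morpholino libraries. Mdm2, a ubiquitin ligase, was at 73.2 and 180.5 FPKM with the morpholino against 19.99 and 22.5 FPKM (log2 fold change 2.39 ± 0.49, limma adjusted p = 0.891). Cdkn1a, whose product inhibits cyclin-dependent kinases, was at 36.4 and 46.0 against 9.71 and 15.9 FPKM (1.64 ± 0.35, limma adjusted p = 0.891). For both genes the morpholino libraries lay above the uninjected ones, but the share of all genes apart upward was not computed. The groups of the entry named rrm2b overlapped, and a relation of it to mdm2 or cdkn1a was not tested. Neither mdm2 nor cdkn1a passed the adjusted threshold.

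The second comparison asks what progesterone does in embryos that carry the ctr9 morpholino. Rrm1 and the first rrm2 entry were lower with progesterone than the bulk of genes, the second rrm2 entry was less far below, tyms was close to the bulk, and rrm2b went apart in the 2 progesterone libraries. No member passed the adjusted threshold, and 0% of all genes tested did (0 called by limma, with 247 higher and 2609 lower at an unadjusted p under 0.05). At that unadjusted level 3 of the 5 entries were lower, rrm1 and both rrm2 entries, where 19.8% of all genes were. With median-ratio scaling 2 of the 5 were, where 1248 of the 13155 tested genes were.

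Rrm1, the large subunit, was at 20.6 and 2.70 FPKM in the progesterone libraries of experiments 1 and 2, against 49.5 and 39.4 FPKM in DMSO. Both progesterone values lay below both DMSO values, and they differed from each other by 7.61-fold. The log2 fold change was -2.34 ± 0.77 (limma adjusted p = 0.177) and the relative change -1.76, lower than all but 1.83% of the tested genes. By rank, 86.6% and 50.8% of tested genes lay below rrm1 with progesterone, against 92.7% to 94.4% in the 4 DMSO libraries. Without the progesterone library of experiment 2 the log2 fold change was -1.07 ± 0.23 (adjusted p = 0.119, relative change -0.78). Without that of experiment 1 it was -3.61, from a group of 1 library whose spread is taken from the other groups.

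The first rrm2 entry, a small subunit, was at 27.9 and 12.05 FPKM against 98.8 and 74.9 FPKM, with a log2 fold change of -2.16 ± 0.43 (limma adjusted p = 0.152) and a relative change of -1.58. Of all tested genes 2.68% had a lower fold change. Both progesterone libraries were below every DMSO library by more than 2-fold. The second rrm2 entry was at 75.4 and 34.7 FPKM against 127.4 and 100.5 FPKM, also below every DMSO library, but its relative change was smaller, -0.55 (log2 fold change -1.13 ± 0.40, adjusted p = 0.193), and 22.6% of tested genes had a lower fold change. Without the progesterone library of experiment 2 the log2 fold changes were -1.59 for the first entry (relative change -1.30) and -0.58 for the second (relative change -0.29). Without that of experiment 1 they were -2.74 and -1.68. Summed into 1 value per library, an alternative chosen after seeing the data, the rrm2 entries gave -1.50 ± 0.41 (adjusted p = 0.156).

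The entry named rrm2b, the other small subunit, was at 1.17 FPKM in the progesterone library of experiment 1, the lowest of its 6 values, and at 5.59 FPKM in that of experiment 2, the highest. The DMSO values with the morpholino, 2.72 and 1.46 FPKM, lay between them. The log2 fold change of 0.32 ± 0.60 (limma adjusted p = 0.764) therefore averages opposite directions, and without the library of experiment 2 it was -0.48 ± 0.43. In that library 69.3% of the tested genes lay below rrm2b, against 15.6% to 29.1% in the other 5. Mdm2, in the same progesterone libraries, was at 193.5 and 339 FPKM, and cdkn1a was at 34.2 and 30.7 FPKM. Mdm2 was higher in experiment 2 in the morpholino DMSO libraries as well, at 73.2 and 180.5 FPKM, whereas rrm2b was lower there in experiment 2. Any relation between these genes was not tested.

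Tyms was at 9.66 and 4.86 FPKM with progesterone against 16.05 and 11.5 FPKM. All progesterone values lay below all DMSO values in the deposited scale, but the relative change was -0.30 (log2 fold change -0.88 ± 0.41, limma adjusted p = 0.26), and the groups overlapped after median-ratio scaling. That overlap was a near tie, with the higher progesterone value and the lower morpholino DMSO value both at 10.41. The log2 fold change was -0.45 when experiment 2 was left out of the progesterone group and -1.32 when experiment 1 was.

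In all, 4 of 5 entries lay apart in the lower direction in the deposited scale, where 44.5% of all tested genes did, and 3 of 5 after median-ratio scaling, where 24.3% did. Those 3 were rrm1 and both rrm2 entries. In bulk RNA, fewer cycling cells in the sort and less of these transcripts per cell cannot be told apart. Sums of markers of several other cell types were also lower in the same comparison. The 9 neural entries summed to 20.3 and 13.6 FPKM with progesterone against 124 and 95.8 FPKM, with elavl4 and neurog1 listed at 0 in both progesterone libraries. Endoderm, yolk and hatching gland markers (9 entries) summed to 16.5 and 3.31 against 93.2 and 89.7 FPKM. Endothelium markers (5 entries) summed to 12.8 and 3.10 against 35.6 and 22.5 FPKM. The neural sum was spread over several genes, with tubb5 at 44.4 and elavl3 at 38.0 of the 124 FPKM in the morpholino DMSO library of experiment 1. The endoderm, yolk and hatching gland sum and the endothelium sum each mostly followed a single gene. Apoeb alone was at 8.36 and 2.98 against 80.2 and 66.7 FPKM, and fli1a alone at 12.8 and 3.10 against 35.2 and 22.4 FPKM. The other endothelium entries, kdrl, cdh5, tie1 and etv2, were at most 0.194 FPKM in the morpholino libraries. Whether fli1a marks endothelium in these cells was therefore not settled. Epidermis markers (7 entries) summed to 65 and 59 against 95.7 and 168 FPKM. In each of these lists both progesterone libraries lay below both DMSO libraries in the deposited scale, where 44.5% of all tested genes did too. The sums were not rescaled. Muscle markers overlapped, at 1.47 and 0.555 against 2.6 and 0.631 FPKM. Otic markers (8 entries), of cells that sox10 also marks, summed to 22.2 and 17.7 against 30.2 and 23.3 FPKM but went both ways. Oc90 was higher, at 16.9 and 12.7 against 7.12 and 5.02 FPKM, and stm lower, at 0.881 and 0.380 against 7.28 and 8.01 FPKM. The neural crest entries summed to 1356 and 498 FPKM against 957 and 749 FPKM. The part of any of these in the member values was not tested.

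**Figure D2:**
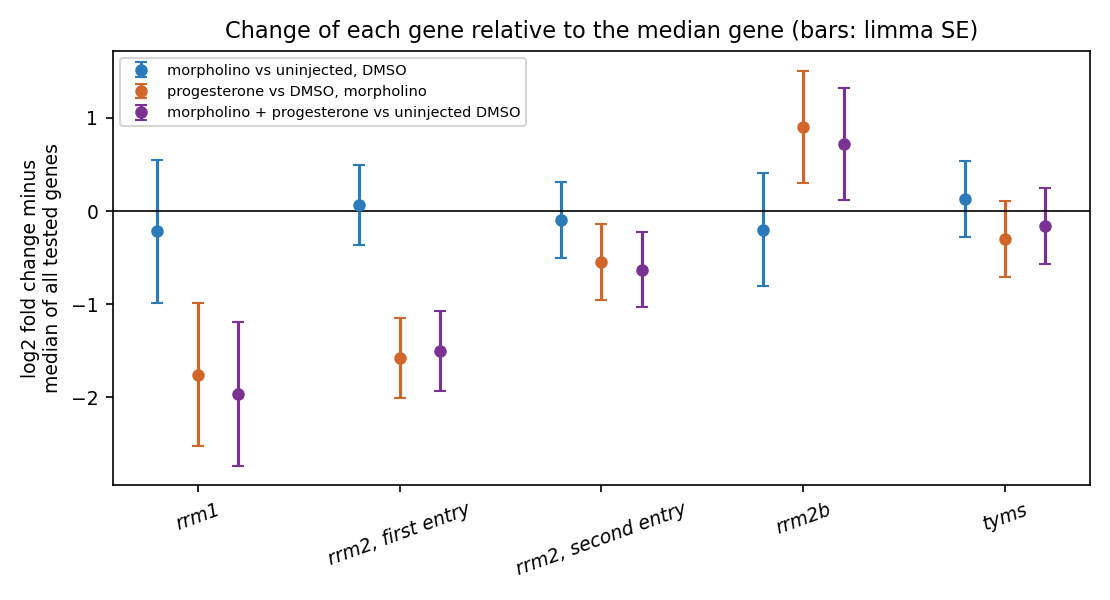
Log2 fold change of each entry minus the median of the 13155 genes tested (vertical axis) in the 3 comparisons, with limma standard errors as bars (6 libraries in 3 groups of 2). Rrm1 and the first rrm2 entry lie at -1.76 and -1.58 with progesterone, the second rrm2 entry at -0.55, and no entry lies further than 0.22 from the median with the morpholino alone.

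Ratios of members within a library do not depend on how that library was scaled, and they separated the genes further. The second rrm2 entry was 1.53 and 1.41 times the first in the uninjected libraries, 1.29 and 1.34 times in the morpholino DMSO libraries, and 2.70 and 2.88 times with progesterone. The progesterone pair thus stood above all 4 DMSO libraries, with a spread within each pair far smaller than the gap. The difference from the morpholino DMSO libraries was 1.08 on the log2 scale (exact two-sided permutation p = 0.333, the smallest that 2 against 2 libraries allow), and it was between 1.04 and 1.13 when any single library was left out. This ratio was chosen after the values were seen.

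Between DMSO and progesterone, tyms followed the second rrm2 entry more closely than the first. The first rrm2 entry was between 6.16 and 6.65 times tyms in the 4 DMSO libraries and 2.89 and 2.48 times with progesterone, a difference of 1.24 on the log2 scale between the tyms to rrm2 ratios of the progesterone and morpholino DMSO groups (exact permutation p = 0.333). The second rrm2 entry was between 7.94 and 10.1 times tyms in DMSO and 7.80 and 7.15 times with progesterone, a difference of 0.16. These groups did not overlap either (exact permutation p = 0.333). Between the uninjected and morpholino DMSO groups the difference was smaller for the first entry, 0.06, than for the second, 0.22. Small to large subunit ratios were less even. The first rrm2 entry was 2.00 and 1.90 times rrm1 with the morpholino in DMSO and 1.36 and 4.46 times with progesterone, so the progesterone libraries lay on both sides. The second was 2.57 and 2.55 times rrm1 and then 3.67 and 12.9 times, above in both. Rrm2b was below rrm1 by at least 17.3-fold in every library but the progesterone library of experiment 2, where it was 2.07 times rrm1.

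**Figure D3:**
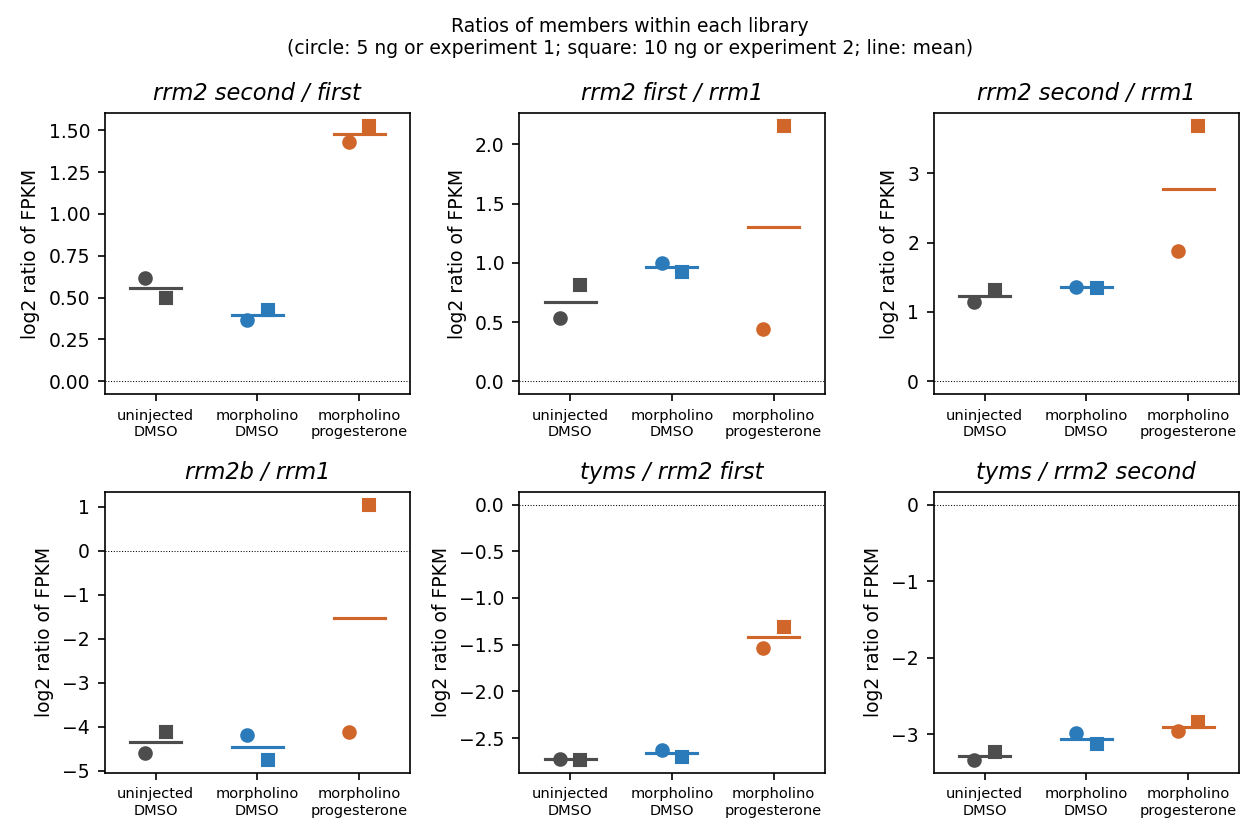
Log2 ratio of the FPKM of 2 members within each library (vertical axes, own scale in each panel), by group; circles are the 5 ng or experiment 1 libraries, squares the 10 ng or experiment 2 libraries, and lines are means. The ratio of the second to the first rrm2 entry and that of tyms to the first rrm2 entry are higher in both progesterone libraries than in all 4 DMSO libraries, while the rrm2b to rrm1 ratio stands out in 1 progesterone library.

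The third comparison sets morpholino embryos in progesterone against uninjected ones in DMSO. It shares the progesterone libraries with the second comparison and the uninjected libraries with the first, so it is no independent repeat. The log2 fold change was -2.63 ± 0.77 for rrm1 (limma adjusted p = 0.141, relative change -1.96), -2.17 ± 0.43 for the first rrm2 entry (adjusted p = 0.111, relative change -1.50) and -1.30 ± 0.40 for the second (adjusted p = 0.15, relative change -0.63). Tyms and rrm2b had relative changes of -0.16 and 0.72, and no member was called, where 0.0152% of tested genes were. At an unadjusted p under 0.05, 3 of 5 entries were lower against 23% of all genes. With median-ratio scaling 2 of 5 were, against 1153 of the 13155 tested genes. In the deposited scale 4 of 5 lay apart in the lower direction against 53% of all genes, and after median-ratio scaling 3 of 5 against 27%. After that scaling the higher progesterone value of tyms, 10.41, nearly tied with its higher uninjected value, 10.4. Without the progesterone library of experiment 1, rrm1 was at -3.90, the rrm2 entries at -2.75 and -1.84 and tyms at -1.26. Without that of experiment 2 rrm1 was at -1.36 and rrm2b at -0.75.

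The genes around the members were read from lists of the pathway, of which no gene was called in any of the 3 comparisons as fitted on all 6 libraries. With median-ratio scaling and without the progesterone library of experiment 2, 2 genes of the thymidylate cycle list were called higher in the third comparison. The S-phase list holds replication genes, with 47 of 48 entries tested. With progesterone 43 of 47 lay below the median of all genes, and the list's own median stood at a relative change of -0.66, beside 0 for all genes, whose interquartile range was -0.49 to 0.50. The largest relative changes in the list were those of rpa2, a single-stranded DNA binding subunit, at 14.4 and 0.224 against 28.3 and 22.6 FPKM, and of the cyclin gene ccne2, at 4.88 and 0.409 against 11.4 and 11.5 FPKM. Both were far lower in experiment 2 than in experiment 1, as rrm1 was. They were named for their large changes, so this likeness is in part built in. Without the library of experiment 2, 35 of 47 lay below and the median was -0.46. With the morpholino alone 36 of 47 lay below, at a median of -0.22, with the replication factor gene rfc1 at 11.95 and 5.83 against 8.66 and 40.0 FPKM and the polymerase epsilon subunit gene pole2 at 13.7 and 5.52 against 18.1 and 18.8 FPKM. In the third comparison 44 of 47 lay below, with the primase subunit gene prim2 at 12.3 and 0.80 against 22.4 and 29.2 FPKM and a list median of -0.91. The 2 entries of uhrf1 agree to within 0.01 FPKM, so that gene counts in duplicate.

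The thymidylate cycle list, 11 of 12 entries tested, went both ways with progesterone, with 6 above the genome-wide median and a list median of 0.03. Shmt2, which passes a carbon unit from serine to folate, was at 48.4 and 29.6 against 18.6 and 16.7 FPKM (relative change 1.64), and mthfd2, a dehydrogenase acting on that folate, at 20.6 and 14.3 against 6.72 and 7.10 FPKM (1.78). Mthfd1l, another enzyme of that pathway, was at 65.8 and 23.3 FPKM against 15.4 and 17.4 FPKM in uninjected cells (1.88 in the third comparison), and at 21.2 and 21.4 FPKM with the morpholino in DMSO. Both progesterone libraries of these 3 genes lay above all 4 DMSO libraries, and none of the 3 passed the adjusted threshold. They were named for their large changes, so lying apart is in part built in, and the share of all genes apart upward was not computed. Dtymk, which phosphorylates dTMP, stood at 10.6 and 9.80 FPKM uninjected, 2.83 and 5.65 FPKM with the morpholino and 1.43 and 1.67 FPKM with progesterone (log2 fold change -1.15 ± 0.41 for the morpholino, limma adjusted p = 1). Its groups did not overlap in any comparison in the deposited scale, with the order uninjected, morpholino, progesterone. Dtymk was named for its large change with the morpholino, so lying apart is in part built in. In that scale 26.1% of all tested genes lay apart in the lower direction with the morpholino alone. The share with progesterone was 44.5% against morpholino embryos in DMSO and 53% against uninjected ones. Dut, which removes dUTP, had 20.8 and 26.8 FPKM uninjected, 13.2 and 18.9 FPKM with the morpholino, then 12.1 and 0.366 FPKM. The list median with progesterone was 0.87 without the library of experiment 2. With the morpholino alone 4 of 11 entries lay above the median of all genes, at a list median of -0.05.

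The electron donor list holds thioredoxins, glutaredoxins and their reductases by family, and whether each serves ribonucleotide reductase was not examined. Of its 9 entries 7 were tested. Their median relative change was 0.10 with progesterone, with 4 above the median of all genes, and -0.34 with the morpholino alone, with 1 above. With progesterone the median turned to -0.13 after median-ratio scaling and to -0.10 without the library of experiment 2. Glrx5, a mitochondrial glutaredoxin, had 15.7 and 14.6 FPKM in the uninjected libraries, 12.1 and 4.26 after morpholino injection and 5.57 and 1.20 with progesterone, and glrx2 2.03 and 4.70, 2.21 and 2.02, and 0 and 0.688 FPKM. Glrx had 1.41 and 1.75 FPKM before and 0 and 1.91 FPKM after morpholino injection. Of the salvage and nucleotide kinase genes 12 of 25 entries were tested, 8 of them above the median with progesterone (median 0.11, or 0.47 without the library of experiment 2) and 4 with the morpholino alone (-0.13). Pnp5b, a purine nucleoside phosphorylase, was at 5.29 and 6.995 FPKM without the morpholino, 1.18 and 0.480 with it and 4.65 and 4.17 once progesterone was added. It was thus low in the morpholino DMSO libraries alone (relative change -1.91 and then 2.17). Both changes rest on those libraries, and pnp5b was named for its large changes, so the opposite signs are in part built in. Cmpk, a UMP and CMP kinase, was at 9.53 and 0.156 FPKM with progesterone against 15.2 and 9.71. Of the other rule-named genes, the higher dguok entry had 4.38 and 2.69 FPKM uninjected against 0.820 and 2.46 with the morpholino, and pnp5a held between 3.29 and 4.28 FPKM in all 6 libraries.

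All 5 breakdown and sanitation genes examined were tested, and with progesterone all 5 lay below the median, at a median relative change of -0.61, or at -0.33 with 3 of 5 below without the library of experiment 2. Samhd1, which in mammals degrades deoxynucleotides, had 2.44 and 3.67 FPKM uninjected, 4.38 and 2.70 with the morpholino, then 2.83 and 0. Itpa, which removes deaminated purine nucleotides, had 5.61 and 6.93 FPKM uninjected, 4.87 and 5.11 FPKM with the morpholino, then 0.0528 and 0.737 FPKM, low in both progesterone libraries (log2 fold change -2.15 ± 0.42 against DMSO, limma adjusted p = 0.152). Dctpp1, a dCTP pyrophosphatase, was at 4.35 and 0.0632 FPKM against 7.75 and 6.69, below in both experiments and far lower in experiment 2. Itpa and dctpp1 were named for their large changes, so these patterns are in part built in. With the morpholino alone the median was 0.17, with nudt1 at 3.80 and 1.92 against 4.10 and 7.76 FPKM and nudt5 at 7.20 and 3.10 against 3.17 and 3.67 FPKM. Nudt1 was at 2.34 and 0.134 FPKM with progesterone.

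Of the regulators 23 of 30 entries were tested, with a median relative change of 0.04 with progesterone (12 above the median), -0.01 with the morpholino (11 above) and -0.10 in the third comparison (11 above). With median-ratio scaling the medians were 0.10, 0.0014 and 0.10. Rbl2, a pocket protein that represses cell cycle genes, had 0.769 and 1.05 FPKM uninjected, 1.97 and 4.89 with the morpholino, then 6.82 and 13.6. No groups of rbl2 overlapped, but it was named for its large change, so this is in part built in. Chek2, a DNA damage kinase, had 8.06 and 6.36 FPKM uninjected, 8.26 and 7.21 FPKM with the morpholino, then 1.38 and 0.135 FPKM (log2 fold change -2.41 ± 0.46 with progesterone, limma adjusted p = 0.152). It too was named for its large change. E2f1, an activator of S-phase genes, and ccnf, whose product in human cells marks RRM2 for degradation, were listed at 0 in all 6 libraries. So was the replication gene mcm2, which dividing cells use, so such a 0 says only how the gene is listed.

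**Figure D4:**
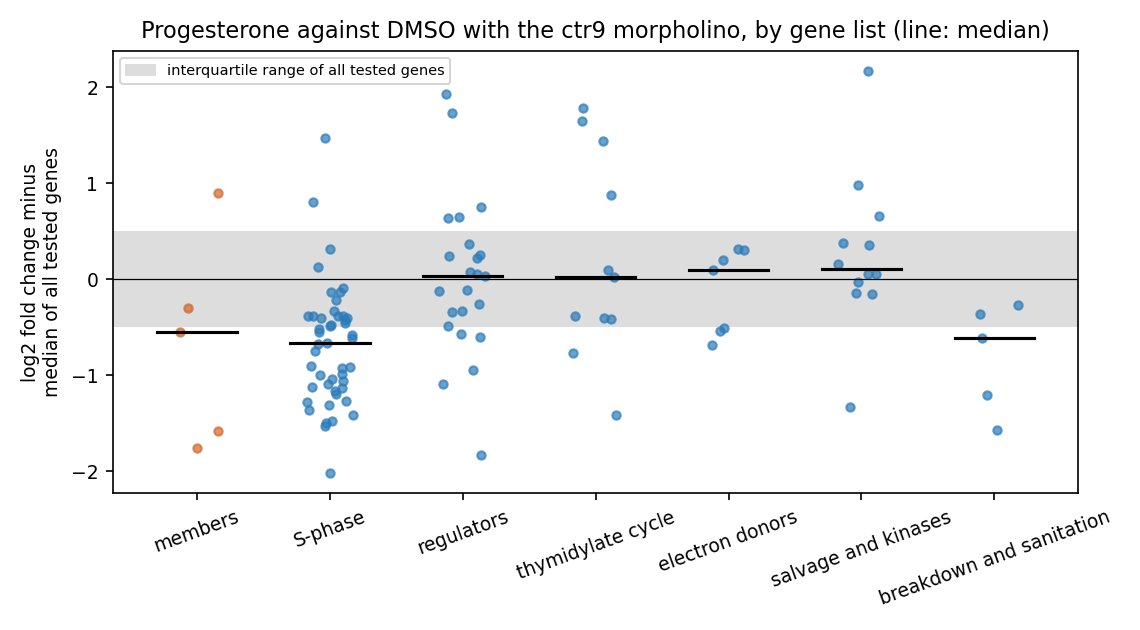
Log2 fold change minus the median of all tested genes (vertical axis) for progesterone against DMSO with the ctr9 morpholino, 1 point per tested entry, with list medians as lines and the interquartile range of all tested genes, -0.49 to 0.50, shaded. Most S-phase entries lie below 0, with a list median of -0.66, while the regulators, the thymidylate cycle, the electron donors and the salvage genes have medians between 0.03 and 0.11.

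The genes most like each member were taken as those with the smallest root mean square difference in log2(FPKM + 1), each centred on its own mean, among the genes with a mean of at least 5 FPKM over the 6 libraries. For rrm1 they were ctdp1 (difference 0.10, Pearson r = 0.998), mrps18b (0.161) and slbp (0.185). Slbp was at 26.2 and 3.04 FPKM with progesterone, also far lower in experiment 2. For the first rrm2 entry they were plk1 (0.0974, r = 0.996), sp8b (0.111) and lsm4 (0.121), and for the second tubb4b (0.0482, r = 0.998), si:ch73-281n10.2 (0.0538) and puf60b (0.0578). The lists of the rrm2 entries shared no gene, but each holds only 3 of the 6608 genes compared, so this does not show that the entries differ. The entries themselves correlated at 0.976. Plk1 was at 89.2 and 40.4 FPKM with progesterone against 299.8 and 228 FPKM, and tubb4b at 148.6 and 70.2 against 258.8 and 203.9 FPKM. For tyms they were kdelc2 (0.0491), csnk1a1 (0.0556) and, closest, an entry named only by its clone (0.0431), and for rrm2b DNAJC13 (2 of 2) (0.127), rnasen (0.154) and MTMR3 (3 of 3) (0.165). Rnasen was at 8.17 and 36.5 FPKM in the progesterone libraries, apart in the same direction as rrm2b. All these genes were picked for their likeness over the same 6 libraries. The high correlations and the shared patterns of slbp, rnasen and the others are therefore built in.

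Among themselves, rrm1, both rrm2 entries and tyms correlated at 0.958 to 0.994 across the 6 libraries on the log2 scale. Rrm2b correlated with the others at -0.577 to -0.393. These are descriptions over 6 libraries that share their scaling, and the progesterone library of experiment 2 holds the extreme value of every member.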

How the data were processed

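RNA from sorted sox10-positive cells was depleted of ribosomal RNA and sequenced as paired reads of 100 bases, per the labels' protocols. The authors deposited 1 table of FPKM values, with the unit taken from a header line repeated at its foot, which was removed. Cutadapt, TopHat2 2.0.11, Cufflinks 2.2.1 and the builds Zv9 and hg19 are named, without their roles, per the submitters' processing notes. No source used here names the annotation. Columns were assigned by name, and 6 libraries in 3 groups were fitted where 7 samples in 4 groups are labelled. Depth is unknown: among genes under 0.6 FPKM, the commonest ratio to the 5 ng library, within 0.01 on the log2 scale, held 2.42% to 3.76% of them, too few to recover whole reads.

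From the deposited FPKM, log2(FPKM + 1) was fitted with limma 3.58.1 in R 4.3.3 (eBayes with a trend) over 13155 genes whose FPKM averaged 1 or more, with 3 group means and 3 residual degrees of freedom. P-values were Benjamini-Hochberg adjusted over all genes and called at 0.05. Fold changes on this scale understate the change of low genes. The script was tested on simulated data. Within-library ratios used no pseudocount and an exact permutation test. Alternatives were other pseudocounts, filters and scalings, each library left out, and the experiment number as a block.

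The members and the lists were chosen with earlier results of these data known. Named beside the members were the 2 list genes with the largest relative change per list and comparison, a few fixed regulator and breakdown genes, and the 3 genes most like each member. List symbols were matched by the table's names, or else by a name table. No sequences are printed, and some genes are not reported here.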

Additional observations from a re-analysis of the deposited data

How the results depend on the processing

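No member passed the adjusted threshold in the reported fits, in the other pseudocounts, filters and scalings, or with only the 2 groups compared. The experiment number was also fitted as a replicate block in the 4 morpholino libraries. Deviations of same-numbered libraries correlated at 0.0762 over genes, and with only 2 pairs this does not settle whether an experiment number marks a shared batch. The block gave 3 called genes (4 with median-ratio scaling) and -2.34 for rrm1, -2.16 and -1.13 for the rrm2 entries, 0.32 for rrm2b and -0.88 for tyms, none called. The genes called in the first comparison, 2 as reported, were 0 with a pseudocount of 0.1, 1 with no filter and 1 with a mean of at least 5 FPKM. In the second, 0 as reported, there were 1 with median-ratio scaling, 1 with scaling to the sum without small, mitochondrial and spike-in RNA, and 1 with only 2 groups. In the third, 2 as reported, there were 0, 1 and 28 with that pseudocount and those filters, 12, 7 and 6 with median-ratio, upper-quartile and the other sum scaling, and 0 with only 2 groups. Leaving out any library, with or without median-ratio scaling, gave 0 to 3, 0 to 4266 and 0 to 4552 calls, the highest without the progesterone library of experiment 1.

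With the morpholino, the first rrm2 entry turned to 0.0944, 0.0586 and 0.0271 under the 3 scalings in that order. Over the left-out libraries the log2 fold changes ran from -0.45 to -0.04 for rrm1, -0.21 to 0.205 for the first rrm2 entry, -0.34 to 0.018 for the second, -0.57 to 0.0382 for rrm2b and -0.17 to 0.29 for tyms. With progesterone they ran from -3.61 to -0.74 for rrm1, -2.74 to -1.25 and -1.68 to -0.24 for the rrm2 entries, -0.48 to 1.96 for rrm2b and -1.32 to -0.13 for tyms. In the third comparison they ran from -3.90 to -0.94, -2.75 to -1.17, -1.84 to -0.32, -0.75 to 1.76 and -1.26 to 0.0016 in the same order, and rrm2b was -0.0305 with a pseudocount of 0.1. Without the progesterone library of experiment 1, with or without median-ratio scaling, members passed in both comparisons with progesterone. Those fits also called a large part of all genes, and they assume that a lone library varies like the other groups. The passes are therefore not read as results about the members.

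Within-library ratios kept their sign except as follows. With the morpholino, rrm2b over the second rrm2 entry ran from -0.52 to 0.0393 and rrm2b over rrm1 from -0.40 to 0.17, the latter being 0.0198 with 1 added to both. With progesterone, the first rrm2 entry over rrm1 ran from -0.52 to 1.20 and rrm2b over the second rrm2 entry from -0.18 to 3.19. In the third comparison these ran from -0.23 to 1.49 and -0.42 to 2.95. Apart from the alternatives' own construction, the causes were not tested. What depth limits could not be assessed, since it is unknown.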
